A study of Homo sapiens with 4 samples.

Results

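CTTN encodes cortactin, a protein that binds actin filaments through a row of tandem repeats and binds partner proteins through an SH3 domain at its C-terminal end. Cortactin activates and stabilizes branched actin networks together with the Arp2/3 complex, is a substrate of Src family kinases, and is known for its role at lamellipodia and invadopodia. The repeat region is spread over several exons, so skipping an exon there changes the number of repeats in the protein. RBFOX1 and RBFOX2 are splicing factors that recognize UGCAUG in RNA, and a site downstream of an exon is commonly linked to inclusion of that exon.

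All alternative splicing events of CTTN were taken from the 5 deposited tables, 37 events of 121269 in all. Of these, 23 were skipped exon (SE) events and 14 were mutually exclusive exon (MXE) events, and the tables of retained introns and of alternative splice sites at either end of an exon held 0 events of CTTN. The gene was chosen because its repeat exon differed between the groups described here, so its values in this contrast are a description and carry no test. The libraries came from U87MG, a cell line that the labels call likely glioblastoma, transfected with 2.5 µM of oligonucleotide using lipofectamine 2000. RBFOXi, in 2 libraries, is a decoy RNA made of repeats of the RBFOX1/2 motif, and the label of RBFOXi replicate 1 names a Cy5 dye on it. SCRM, in the other 2 libraries, is a scrambled oligonucleotide used as the control. The libraries are described as independent biological replicates of each transfection. In the sample titles, replicate 1 of both groups ends in D_R and replicate 2 of both groups ends in P, and the labels do not say what these endings mean.

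Counts over all SE events lay between 114415530 and 136097319 per library, with some reads entering more than 1 event. The SCRM replicate 1 library stood apart in some genes. RBFOX2 had 1966 counts over its 11 SE events there, against 11653 in SCRM replicate 2 and 6990 and 8409 in the RBFOXi libraries. EGFR had 89 counts there against 1152 to 2114 in the other libraries. CTTN itself was uneven there. Its SE event of exon 2 between exons 1 and 3 had 3492 counts, against 9112 in SCRM replicate 2 and 7215 and 8624 with RBFOXi. Near the other end of the gene, exon 17 between exons 16 and 18 had 6432, against 7090 in SCRM replicate 2 and 6902 and 8136 with RBFOXi. Values without SCRM replicate 1 are therefore given beside the main CTTN result, and the part of these differences in it was not tested. Their part in MXE events, which compare exons at different positions, was not tested either. VIM and CD44, from a list of glioma and astrocyte markers, had at least 189745 counts in every library, summed over 7 and 87 SE events. GFAP, S100B, SOX9 and FABP7 had no SE event in the table, which lists splicing events and not expression. NES had 179 to 432 counts in 1 SE event. Such sums grow with the number of events, so they do not compare genes. Of 6 markers of other cell types, only SYP had an SE event, with 24 to 34 counts.

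The repeat exon is exon 11 of the 18 exons of the main CTTN transcript and is coding. It covers chr11:70267576-70267686 on the plus strand of hg19 (GRCh37) and is 111 nt long, which is 37 codons, so that skipping it keeps the reading frame. In GENCODE 44, 3 coding transcripts hold both neighbouring exons, of which 1 holds exon 11 and 2 do not. Exons 8, 9, 10 and 11 are all 111 nt long and all begin in the same coding phase. Exon 11 was most similar to exon 10, its upstream neighbour, with 73 of 111 bases identical (65.8%). Its identity to exons 8 and 9 was 64.0% and 62.2%, and the most similar pair among these exons was 8 and 9, with 75.7%. Exon 6 has the same length but begins in another phase, and 21.6% of its bases matched exon 11 at the same position. That value does not allow for the shift in phase, so it does not show whether exon 6 resembles the repeats. The sequences of exons 11 and 10 are shown because reads must be told apart between them, and the capitals mark the bases that they share at the same position.
exon 11, chr11:70267576-70267686: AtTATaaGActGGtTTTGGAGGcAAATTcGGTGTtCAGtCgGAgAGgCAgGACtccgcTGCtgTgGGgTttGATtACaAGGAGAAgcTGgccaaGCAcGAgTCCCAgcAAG
exon 10, chr11:70266506-70266616: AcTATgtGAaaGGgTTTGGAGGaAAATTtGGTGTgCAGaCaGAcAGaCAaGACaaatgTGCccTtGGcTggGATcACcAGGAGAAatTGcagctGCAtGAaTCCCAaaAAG
The longest run of bases found in both exons was 8 nt, and between exon 11 and any other exon of its length it was at most 15 nt.

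Exon 11 also differed from its neighbours at its 5′ splice site. Its downstream intron begins with GC, whereas the introns after exons 6, 8, 9, 10 and 12 begin with GT. Among 30617 exons tested as SE events, 386 (1.26%) were followed by an intron that begins with GC and 98.7% by one that begins with GT. The splice sites of exons 10 and 11 are shown with the last 3 exon bases and the first 6 intron bases, and capitals mark the first 2 bases of the intron.
5′ splice site of exon 11, chr11:70267684-70267692: aagGCacag
5′ splice site of exon 10, chr11:70266614-70266622: aagGTacat
The 3′ splice site of exon 11 ends in AG, as do those of the other exons examined, and 12 of the last 20 intron bases were pyrimidines.

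Inclusion of exon 11 was lower with RBFOXi. Inclusion is given as the proportion spliced in (PSI), from 0 when every transcript skips the exon to 1 when every transcript includes it, computed from the read counts of each form divided by its effective length. With exons 10 and 12 as neighbours, the PSI of exon 11 was 0.469 and 0.374 in the RBFOXi libraries and 0.799 and 0.767 in the SCRM libraries. Both RBFOXi libraries lay below both SCRM libraries, as they did in 16.5% of all tested SE events. The mean was 0.422 ± 0.067 (SD, n = 2) in the RBFOXi group. In the SCRM group it was 0.783 ± 0.023 (SD, n = 2), which gives a difference (delta PSI) of -0.361. The label of RBFOXi replicate 1 alone names the Cy5 dye, so the RBFOXi SD includes any effect of the dye, which was not tested. Without SCRM replicate 1 the delta PSI was -0.346. As a plain share of inclusion counts, without division by effective length, it was -0.232. Between the libraries whose titles end alike, RBFOXi minus SCRM was -0.330 for replicate 1 and -0.393 for replicate 2. These values rested on 4163 to 6709 counts per library, and the event held more counts than 93.8% of the 39615 SE events tested.

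The event with exons 9 and 12 as neighbours, whose skipping form lacks exon 10 as well, showed the same direction at higher PSI. Its PSI was 0.819 and 0.805 with RBFOXi and 0.942 and 0.911 with SCRM. The groups did not overlap, and the delta PSI was -0.114. Both events count the reads that join exon 11 to exon 12 and the reads within exon 11, so they are not independent measurements. The inclusion counts of the event between exons 9 and 12 were 1392 and 1415 with RBFOXi and 1756 and 2456 with SCRM. Of these, only 3 and 10 with RBFOXi and 7 and 14 with SCRM joined exon 9 to 11. Its skipping form leaves out the reads that join exon 10 to 12. Its PSI is therefore not the inclusion rate of exon 11 in transcripts that lack exon 10.

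**Figure D1:**
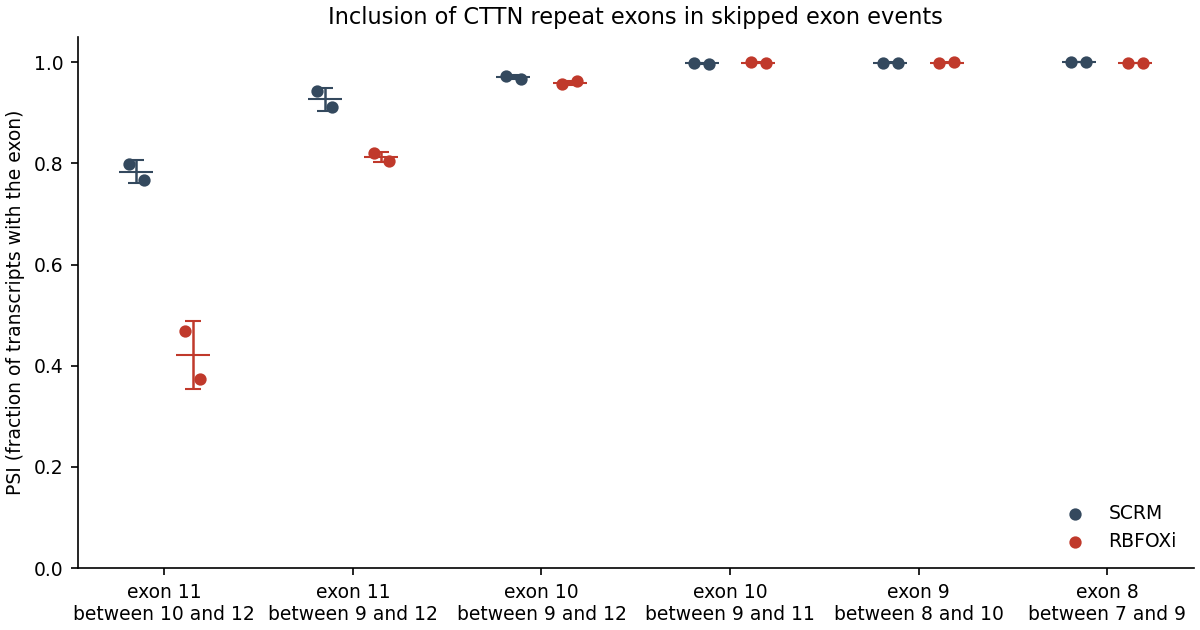
PSI of CTTN exons 8 to 11 in 6 SE events. Points are libraries, horizontal bars are means and error bars are SD (n = 2 per group). The RBFOXi libraries lie lowest for exon 11 between exons 10 and 12, at 0.469 and 0.374, and exons 8 and 9 lie near 1 in both groups.

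Separating the reads by junction showed where the transcripts went. Reads that join exon 10 to exon 12, and so skip exon 11, numbered 1269 and 1863 with RBFOXi and 324 and 620 with SCRM. Reads that join exon 10 to exon 11 are not listed on their own, and they were solved from pairs of events. They came to 1950 and 1918 with RBFOXi and 2090 and 3647 with SCRM, and both pairs of events that allow this gave identical numbers in every library. Per 1000000 SE counts, the skipping junction was at 10.2 and 13.7 with RBFOXi against 2.83 and 4.58 with SCRM, 3.22-fold higher on the means. The junction from exon 10 to 11 was at 15.6 and 14.1 with RBFOXi against 18.3 and 26.97 with SCRM on the same scale, with a ratio of means of 0.657. The scale is set by the SE counts of all genes, so it does not allow for the uneven CTTN counts of SCRM replicate 1. From these junctions alone, the PSI was 0.467 and 0.370 with RBFOXi and 0.786 and 0.770 with SCRM. For this, reads were divided by effective lengths of 86 for exon 10 to 11 and 49 for exon 10 to 12. As a plain share of these reads, without the lengths, the PSI was 0.606 and 0.507 with RBFOXi and 0.866 and 0.855 with SCRM.

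Direct joins from exon 9 to 12, which skip exons 10 and 11 together, were rarer. They numbered 103 and 115 with RBFOXi and 36 and 81 with SCRM. Per 1000000 SE counts they were at 0.825 and 0.845 with RBFOXi against 0.315 and 0.599 with SCRM. Reads from exon 9 to 11, which skip exon 10 alone, numbered 3 and 10 with RBFOXi and 7 and 14 with SCRM, and those from exon 8 to 12 numbered at most 2 in any library. Of the reads that skip exon 11 from exon 9 or 10, the joins from exon 9 made up 7.51% and 5.81% with RBFOXi and 10.0% and 11.6% with SCRM. Exon 10 was thus rarely missing where exon 11 was present. After division by effective length, transcripts with exon 11 made up 40.2% ± 6.4 (SD, n = 2) of these paths in the RBFOXi group. The SCRM group had 75.8% ± 1.4 (SD, n = 2).

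**Figure D2:**
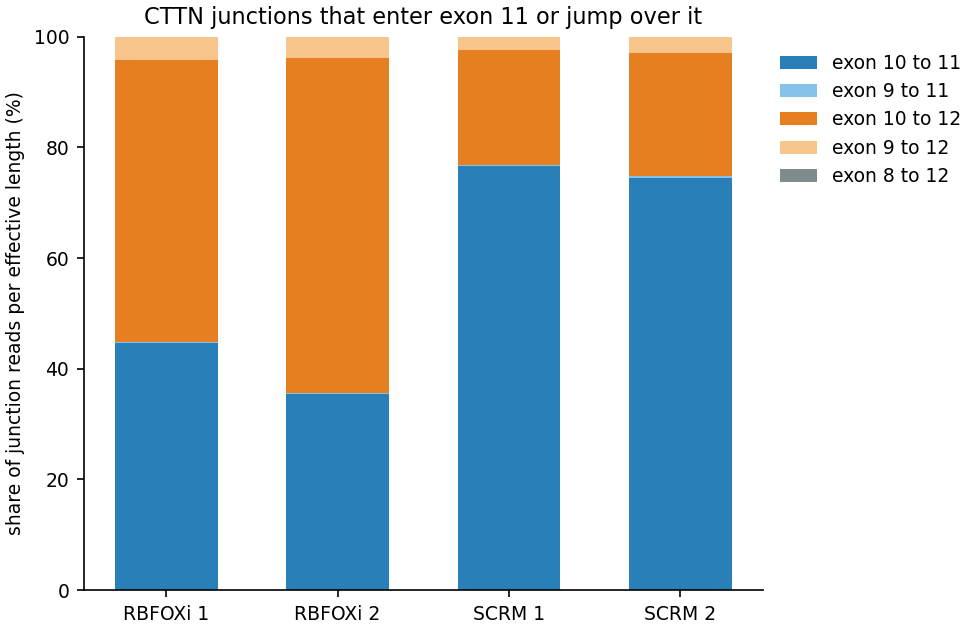
Share of 5 junctions that enter exon 11 or jump over it, in percent of their reads per effective length, as stacked bars for each library. The join from exon 10 to 12 makes up 51.1% and 60.5% in the RBFOXi libraries and 20.8% and 22.2% in the SCRM libraries.

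The MXE events that hold exon 11 as an alternative exon read the same region in another way, but from counts that also enter the SE events. In the event that sets exon 10 against exon 11 between exons 9 and 12, the PSI belongs to exon 10. It was 0.828 and 0.859 with RBFOXi and 0.683 and 0.743 with SCRM, so that the share of exon 11 was lower with RBFOXi. The groups did not overlap, and the delta PSI of exon 10 was 0.131. Both sides of this event are the inclusion counts of the SE events of exons 10 and 11 between exons 9 and 12. It is therefore not an independent measurement. Exon 11 was mostly joined to exon 10, so transcripts with both exons count on both sides and the PSI is not a share of exclusive forms. The event that sets exon 11 against an 84 nt exon lying in intron 11 had a PSI for exon 11 of 0.996 and 0.989 with RBFOXi and 0.994 and 0.990 with SCRM, and the groups overlapped. That 84 nt exon was rarely used. Its SE event between exons 10 and 12 held 11 and 30 inclusion counts with RBFOXi and 17 and 47 with SCRM. Its PSI was 0.00362 and 0.0067 with RBFOXi against 0.0215 and 0.0308 with SCRM, measured against the same exon 10 to 12 junction as above.

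Across the whole gene, the larger differences were in events that touch exon 11. An absolute delta PSI of at least 0.1 was found in 2 SE events and 6 MXE events of CTTN, and all 8 hold a junction that starts at, ends at or jumps over exon 11. Over all genes, 4.83% of SE events and 3.58% of MXE events tested had a difference of that size. The 8 events share reads and the gene was chosen for this contrast, so they are not 8 separate changes. For example, exon 12 in the MXE event against exon 13 between exons 10 and 14 had 1270 and 1863 counts with RBFOXi. It had 324 and 620 with SCRM, and these are nearly the counts of the exon 10 to 12 junction. The 6 MXE events had delta PSI between -0.155 and 0.131. A further MXE event, exon 9 against 10 between exons 7 and 11, had a delta PSI of 0.0817 and groups that did not overlap. The MXE events that hold no such junction numbered 4, with an absolute delta PSI of at most 0.0132. The 12 SE events that hold none had an absolute delta PSI of at most 0.0022 and a PSI of at least 0.99156 in every library. Such events include exon 8, whose PSI between exons 7 and 9 was 0.999 in every library, and exon 9, whose PSI between exons 8 and 10 was at least 0.998. Exon 10 between exons 9 and 12 had a PSI of 0.956 and 0.962 with RBFOXi and 0.972 and 0.967 with SCRM, a delta PSI of -0.0107.

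Of the 23 SE events, 13 passed the filter on low counts, and the other 10 had at most 2 skipping counts over the 4 libraries and a PSI of at least 0.990 in every library. All 14 MXE events passed. The groups did not overlap in 10 of the 13 SE events and 7 of the 14 MXE events that passed, against 30.8% and 24.4% of all tested events of each type. Calls needed an adjusted p (limma, Benjamini-Hochberg) under 0.05 and a delta PSI of 0.1 or more in size. By that rule 1 CTTN SE event (exon 11 between exons 10 and 12) and 0 CTTN MXE events were called, where 0.0682% of SE events and 0.0% of MXE events were called overall. Over all genes, 395 MXE events (1.51%) had an unadjusted p under 0.05, and a quasi-binomial F test called 2 MXE events, neither of them in CTTN. Without SCRM replicate 1 the exon 11 SE event was not called and 5 CTTN MXE events were, where 20 MXE events (0.0764%) were called over all genes. Without SCRM replicate 2 that SE event was not called either and 5 CTTN MXE events were, where 1431 MXE events (5.52%) were called over all genes. Without RBFOXi replicate 1, 1 CTTN SE event and 1 CTTN MXE event were called, where 63 SE and 15 MXE events were called over all genes. With the replicate number as a block, 2 CTTN SE events and 6 CTTN MXE events were called, where 119 SE and 77 MXE events were called over all genes. When either SCRM library was left out, fewer SE events were also called over all genes than with all libraries. Since the contrast served to choose the gene, nothing is read from these counts.

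**Figure D3:**
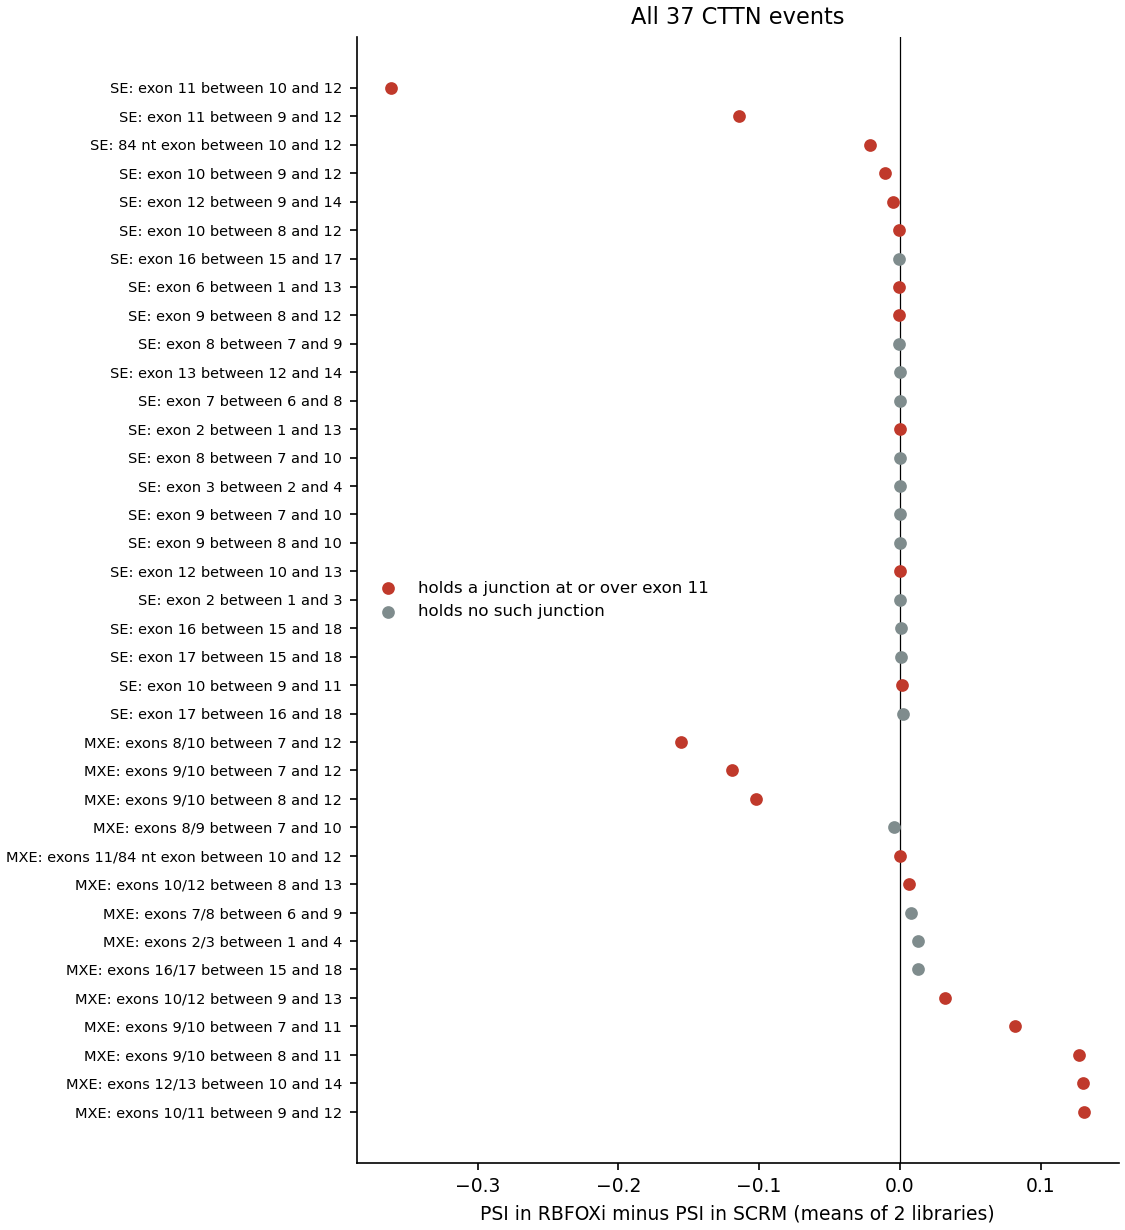
Delta PSI (RBFOXi minus SCRM, means of 2 libraries each) of all 37 CTTN events, on the x axis, with 1 line per event named by its alternative exon or exons and its neighbours. Red points hold a junction at or over exon 11 and range from -0.361 to 0.131, and grey points hold none and stay within 0.0132 of 0.

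Set among all SE events, the fall of exon 11 ranked 32 of 39615 by delta PSI, and 3 of the 12513 events that averaged 1000 or more counts. The exon was chosen because it differed in this contrast, so a high rank follows from the choice. The median absolute delta PSI of all tested SE events was 0.00803, and the 95th percentile was 0.0976. The median absolute difference between the SCRM libraries, over all tested SE events, was 0.0116. For exon 11 between exons 10 and 12, the SD was 0.067 with RBFOXi and 0.023 with SCRM.

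**Figure D4:**
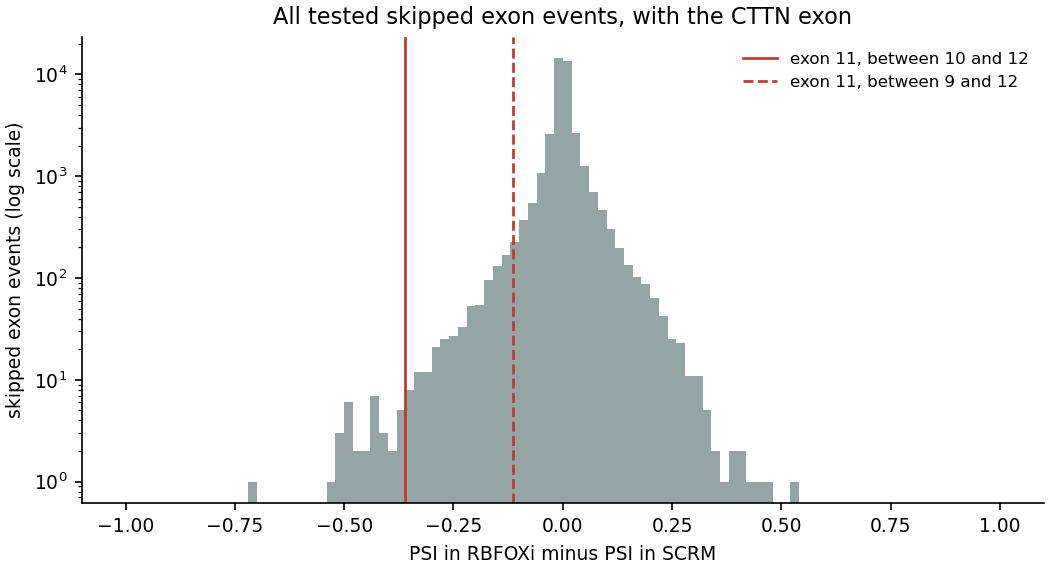
Histogram of delta PSI (RBFOXi minus SCRM) over the 39615 tested SE events, with the number of events on a log axis. The solid line marks exon 11 between exons 10 and 12 at -0.361 and the dashed line exon 11 between exons 9 and 12 at -0.114.

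UGCAUG, searched as TGCATG on the strand of the gene, was found in the intron after exon 11 but not close to the exon. The first 300 nt after the exon held 0 copies and the last 300 nt before it held 0. Of the exons tested, 8.36% held a copy in the first 300 nt after the exon and 8.16% in the last 300 nt before it. The upstream intron, of 959 nt, held 0 copies over its length, and the downstream intron, of 1359 nt, held 3. A copy anywhere in the downstream intron was found for 49.9% of exons. Among the 5166 exons whose downstream intron is 1000 to 2000 nt long, 34.6% held a copy and 2.07% held at least 3. The copies are shown with neighbouring bases, because they are the nearest matches downstream of exon 11, and capitals mark TGCATG.
copy 1, chr11:70268468-70268497: ggtcccgcagacTGCATGgagatggcagtg
copy 2, chr11:70268506-70268535: tggcatcactgcTGCATGacagtgtgactt
copy 3, chr11:70268963-70268992: tctggatctgtcTGCATGcacccacggcca
They begin 794, 832 and 1289 nt after exon 11, and the last ends 65 nt before exon 12. On the opposite strand, TGCATG occurred once in each intron, and the downstream one overlaps copy 3. A match in these windows is a description of the letters and not of binding.

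The shorter GCATG, which lies within TGCATG, occurred 2 times in the upstream intron on the gene's strand. The nearer copy ends 71 nt before exon 11 and is shown with GCATG in capitals.
upstream GCATG, chr11:70267488-70267517: tttgatttttgcGCATGctcatgcaattct
A GCATG in the last 300 nt before the exon was found for 23.7% of exons tested, and 24.1% held it in the first 300 nt after the exon, where exon 11 held none. Around the neighbouring exons, TGCATG occurred 1 time in the last 300 nt before each of exons 9, 10 and 12, the last being copy 3, and 0 times in the first 300 nt after each of exons 6 to 12. Before exon 10 the copy ends 3 nt before the exon. CTCTCT, a motif of the splicing factor PTBP1, occurred 0 times on the gene's strand in both introns beside exon 11.

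**Figure D5:**
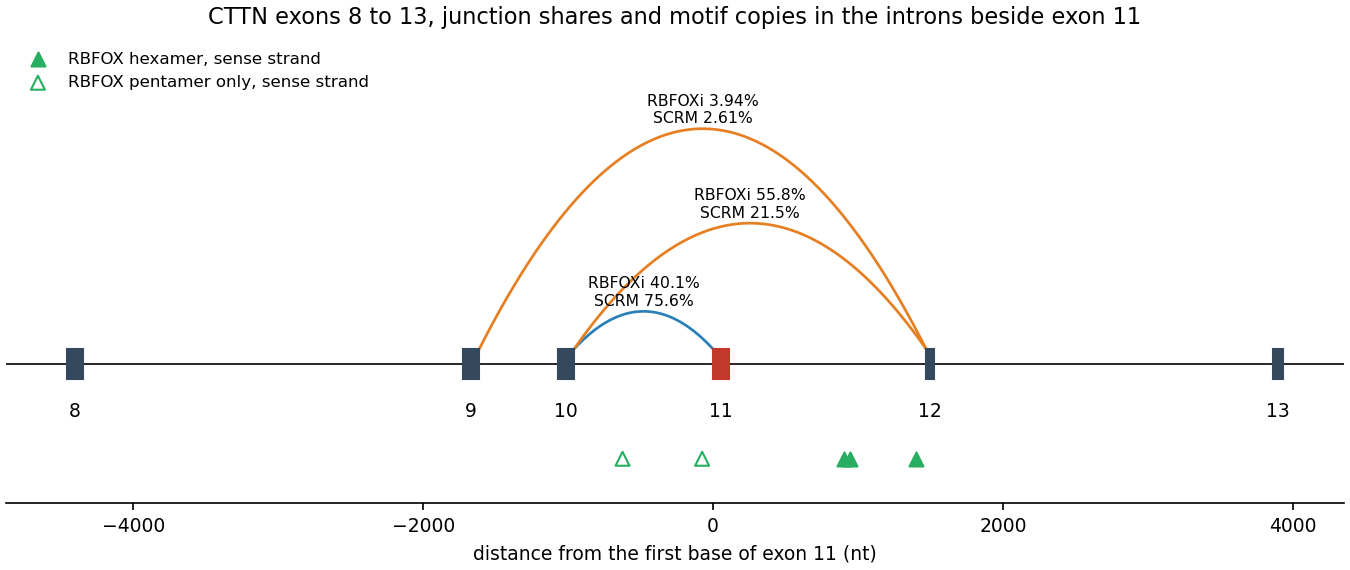
CTTN exons 8 to 13 drawn to scale, with the distance from the first base of exon 11 in nt on the x axis. Arcs are junctions with their mean share of reads per effective length in each group, and triangles mark motif copies in the 2 introns beside exon 11, with the 3 filled triangles all downstream.

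The SE exons of other genes with PSI most like that of exon 11 over the 4 libraries were chosen by the Euclidean distance of PSI among 26742 exons with a mean of at least 100 counts. The nearest, at a distance of 0.119, was an exon of EPB41L1, a protein that links the membrane to the spectrin-actin skeleton. Its PSI was 0.384 and 0.444 with RBFOXi and 0.754 and 0.762 with SCRM. The other 4 were exons of MAP2K7, a kinase that activates JNK, PICALM, a clathrin assembly protein, ABI1, an adaptor of the WAVE complex, and MYO18A, an unconventional myosin. Their distances were 0.127 to 0.143, and their delta PSI lay between -0.446 and -0.280. A fall of similar size follows from choosing exons by their PSI in these same libraries, and nothing is read from it. With distances on log2 odds, 4 of the 5 exons stayed in the list.

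Genes whose products work with cortactin were examined in the same table. They formed 6 lists with 51 genes, of which 42 had tested SE events. The lists were chosen with earlier results of these data known, so their share of called events is a description and not evidence about the lists. Of 283 tested events, 2 were called with limma, both lower with RBFOXi and both for the same exon of ABI1, against 0.0682% of all SE events in either direction and 0.053% lower. The median delta PSI of the 283 events was -0.00042, where that of all tested SE events was -6e-05. The lists of the Arp2/3 complex (80 tested events), SH3 domain partners of cortactin (42), kinases and the deacetylase that modify cortactin (68), cortactin relatives (11) and invadopodium components (10) held 0 called events. At an unadjusted p under 0.05 (limma), these lists held 3 of 80, 2 of 42, 7 of 68, 0 of 11 and 0 of 10 events. The list of nucleation promoting factors and their regulators, which holds ABI1, had 6 of 72, and all lists together had 18 of 283. Among all SE events, 3.61% passed it.

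ABI1 belongs to the WAVE complex, which activates Arp2/3. Its 87 nt exon had a PSI of 0.352 and 0.445 with RBFOXi and 0.766 and 0.779 with SCRM in the event with more counts, and the groups did not overlap. Its delta PSI was -0.374, with a log2 odds difference of -2.36 ± 0.34 (SE) and an adjusted p of 0.0189 (limma). In the other event of that exon the PSI was 0.619 and 0.268 with RBFOXi and 0.935 and 0.885 with SCRM, with an adjusted p of 0.0386 (limma). Without SCRM replicate 1 the limma adjusted p-values were 0.305 and 0.846, without SCRM replicate 2 they were 0.283 and 0.312, and without RBFOXi replicate 2 they were 0.00163 and 0.121. Over all alternatives, the adjusted p ranged from 1.22e-07 to 0.431 for the first event and from 1.91e-09 to 0.976 for the second.

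In the lists without a called event, the event with the largest absolute delta PSI is given for each. ARPC4, a subunit of the Arp2/3 complex, had an exon with a PSI of 0.880 and 0.768 with RBFOXi and 0.510 and 0.686 with SCRM. DNM2, the GTPase dynamin 2 that binds the SH3 domain of cortactin, had a 12 nt exon at 0.632 and 0.771 with RBFOXi and 0.381 and 0.520 with SCRM. The groups did not overlap for either gene, and the limma adjusted p was 1.00 for both. PTK2, the focal adhesion kinase, had a 9 nt exon at 0.272 and 0.344 with RBFOXi and 0.0503 and 0.196 with SCRM. NCK2, an SH2 and SH3 adaptor, had an exon with a delta PSI of 0.0716 and overlapping groups. DBNL, a relative of cortactin that binds actin, had a delta PSI of 0.0177 and a log2 odds difference of -0.12, of opposite signs. None of these passed the test, with a limma adjusted p of 1.00 for each.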

How the data were processed

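RNA-seq of U87MG cells was taken from the deposited rMATS event tables. The authors kept uniquely aligned reads (STAR 2.4.2a, hg19), and rMATS, run on UCSC known genes, counted those that fit inclusion or skipping. From the deposited tables these raw counts, with both libraries of a group in a cell, and the effective lengths were used. The authors' p-values, FDR and inclusion levels were not used, and PSI recomputed here differed from the deposited levels by at most 0.0005. The counts cannot be taken as separate molecules.

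limma 3.58.1 (R 4.3.3) was run on log2 odds (pseudocount 0.5) with condition as the term, over all events of a type, with a variance trend and Benjamini-Hochberg adjustment. An event was tested if no library had under 5 counts, the mean was 20 or more, and each form had 4 or more. Calls needed an adjusted p under 0.05 and an absolute delta PSI of 0.1. The fit was tested on simulated data. The planned edgeR test was not run, because 2-library cells could not be declared as counts, and a quasi-binomial F test was added after seeing the data. Sequences came from GRCh37 and exon numbers from GENCODE 44. The CTTN events and partner lists were chosen with earlier results of these data known. CTTN events that hold exon 11 or pass the filter may be named, as may partner events that were called or had the largest absolute delta PSI of their list, and the 5 exons nearest in PSI.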

Additional observations from a re-analysis of the deposited data

How the results depend on the processing

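With 2 libraries per group, precision rests on few replicates. The delta PSI of exon 11 in the SE event, -0.361, moved to -0.232 as a plain share of inclusion counts without effective lengths, and ranged from -0.409 to -0.314 with single libraries left out. The MXE value of exon 10 against 11, 0.131, ranged from 0.101 to 0.161. CTTN events called numbered 1, but 0 with a pseudocount of 0.1 and 1 to 5 with single libraries left out. The 5 were all MXE events, from fits without a SCRM library in which 20 and 1431 MXE events were called over all genes, against 0 with all libraries. SE events called numbered 27, but 52 with the quasi-binomial F test, 1 with a pseudocount of 0.1 and 3 to 63 with single libraries left out. Partner gene events called numbered 2, but 1 with the quasi-binomial test, 0 with a pseudocount of 0.1, 1 with 1 event per exon and 0 to 4 with single libraries left out, where a lone library is assumed to vary like the other group. The cause of these shifts was not tested. Over the whole downstream intron, UGCAUG copies numbered 3 in place of 0. The quasi-binomial test, the junction-only PSI (delta PSI -0.360) and the whole intron were chosen after seeing the data, and the planned edgeR test was not run. As a plain share of reads, the junction-only delta PSI was -0.304.

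Same-numbered libraries share a title ending across the groups, but the labels do not say that it marks a shared batch or day. Their deviations from the group means correlated at 0.0944, which does not settle whether they are paired. With the replicate number as a block, 8 CTTN events (2 SE and 6 MXE), 5 partner gene events, 119 SE events and 77 MXE events were called, and the delta PSI values were the same.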
